A study of Mus musculus with 17 samples.

Results

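*Usb1* knockout (KO) and wild-type (WT) R1/E mouse embryonic stem cells were compared after 1 day of retinoic acid (RA), in 3 libraries of each genotype out of the 17 libraries sequenced. The members of the comparison are these 6 libraries, and the genes tested are the 17582 of 54532 listed genes with TPM (transcript abundance per length, scaled to the same total in every library) of at least 1 in at least 3 of them. The other libraries hold the same 2 genotypes at day 0 (2 WT, 3 KO) and at day 3 (3 of each), and every group carries the RA label, although by the study's account the cells of day 0 had not received RA. All KO libraries came from 1 CRISPR/Cas9 line, named KO-1. Differences between clones and effects of the knockout therefore cannot be told apart. At day 1 no vehicle control was among the samples analysed here.

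USB1 is an exonuclease that trims the 3′ end of U6 small nuclear RNA, the catalytic RNA of the spliceosome. RA is a vitamin A derivative that enters the nucleus with the help of binding proteins of the CRABP family and activates RA receptors, which bind DNA as partners of retinoid X receptors. In embryonic stem cells RA ends self-renewal and induces enzymes of its own breakdown, *Hox* genes from the 3′ end of the clusters and, in part of the cells, endoderm and germline genes, while pluripotency factors decline. The comparison asks how the transcriptome of cells without USB1 differs at the first day of this response.

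Reads recovered from the TPM values numbered 15843663 to 16400398 on genes in the WT and 15505026 to 16528195 in the *Usb1* KO libraries. Pearson's r of log2(TPM + 1) over the genes tested was 0.974 to 0.978 within a genotype (6 pairs of libraries) and 0.957 to 0.967 between genotypes (9 pairs), across genes, which are not independent replicates. All 6 libraries held high levels of the stem cell factors *Pou5f1*, at 971 ± 13.4 TPM (SD, n = 3) in WT and 1103 ± 18.3 TPM (SD, n = 3) in *Usb1* KO cells, and *Sox2*, at 735 ± 30.6 TPM (SD, n = 3) in WT and 644 ± 1.73 TPM (SD, n = 3) in *Usb1* KO cells. The targeted gene, *Usb1* (ENSMUSG00000031792, GRCm38 chr8:95332284-95347507, on the plus strand), was at 56.9, 48.6 and 51.9 TPM in the WT libraries and 20.7, 21.4 and 18.5 TPM in the *Usb1* KO libraries. Its mRNA was lower in each KO library than in each WT library and remained detected at 38.5% of the WT mean. Its log2 fold change was −1.34 (limma adjusted p = 0.000211, SE 0.08). In the sentences below, levels of 2 groups joined by 'and' are the WT mean and then the KO mean, each ± SD over 3 libraries (2 for WT cells at day 0). The TPM of the whole gene does not show whether a message encodes the protein.

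Of the 17582 genes, 563 (3.2%) were called. A call needed an adjusted p under 0.05 in limma and a change of at least 2-fold in log2(TPM + 1), a scale that understates changes of genes of low TPM. Of these, 452 were lower in *Usb1* KO cells (2.57% of genes tested) and 111 were higher (0.631%). An adjusted p under 0.05 at any size of change, called passing the test below, was reached by 3579 genes lower (20.4%) and 1100 genes higher (6.26%) in the KO cells. The counts of each list below are to be read against these shares of all genes. Every KO library lay below every WT library for 6117 genes (34.8%) and above every WT library for 1966 genes (11.2%). Leaving out each of the 6 libraries in turn gave 464 to 672 called genes.

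The balance of the directions depended on the scaling between libraries, because the median over all genes of the log2 fold change was −0.14. With each library scaled to an equal median, which adds 0.20 to every log2 fold change, 196 genes were called higher and 243 lower (44.6% higher, against 19.7% on the TPM scale), and 15.1% of genes passed the test as higher and 8.74% as lower. Changes are therefore given below beside the median of −0.14, and the count of a list at an equal median follows where its balance of directions turned or levelled. Ribosomal protein genes took 7.35% to 7.87% of all TPM in the WT and 8.77% to 9.90% in the KO libraries, and genes encoded in mitochondria 4.44% to 4.66% and 5.03% to 5.44%. Across protein-coding genes the median log2 fold change fell with the length of the exons, from −0.01 in the 2643 shortest genes to −0.27 in the 2642 longest. The part of these shares and of gene length in the results was not tested.

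**Figure D1:**
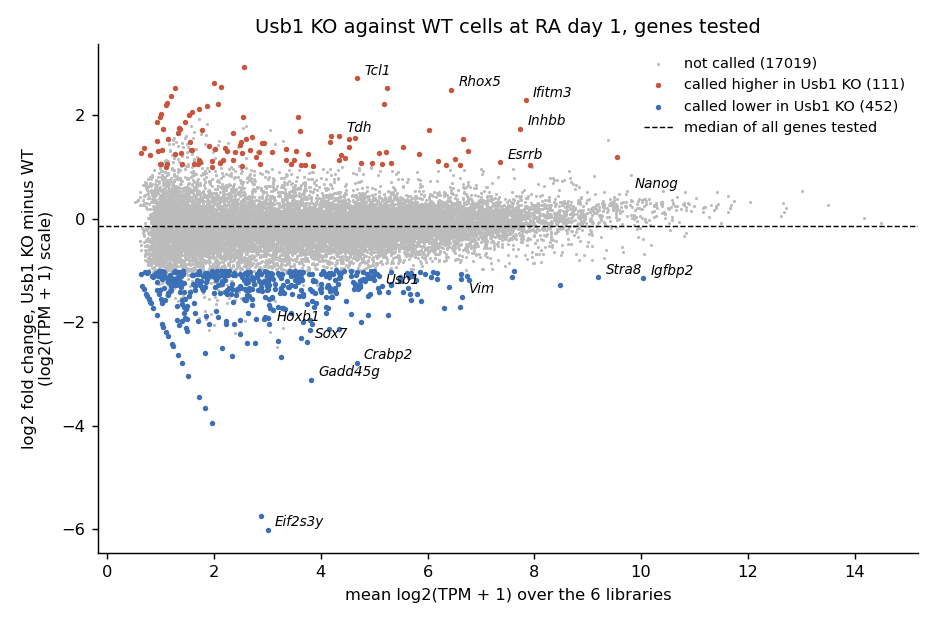
Log2 fold change of each gene tested (y axis, *Usb1* KO minus WT, log2(TPM + 1) scale) against its mean log2(TPM + 1) over the 6 libraries (x axis), with the 111 genes called higher in red, the 452 called lower in blue and the median of all genes as a dashed line at −0.14. *Tcl1* and *Ifitm3* stand out among the rises and *Crabp2*, *Gadd45g* and *Eif2s3y* among the falls.

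Genes that RA induces in WT cells were more often lower in *Usb1* KO cells at day 1. From the WT libraries of day 0 and day 3 alone, none of which enters the day 1 comparison, 1212 genes were induced at least 4-fold by RA and 604 were repressed at least 4-fold (adjusted p under 0.05, limma). Day 0 is represented by 2 WT libraries, and replicate 1 held 17090 genes above 0, against 22314 in replicate 2. Whether this brought genes of low level into the lists was not tested. Of the 968 induced genes tested at day 1, 768 (79.3%) had a log2 fold change below 0, against 67.4% of all genes, 115 (11.9%) were called lower, against 2.57% of all genes, and 7 were called higher. Their median was −0.38, which is −0.24 relative to all genes. Of the 547 repressed genes tested, 26 were called higher (4.75%, against 0.631% of all genes) and 33 lower (6.03%, against 2.57% of all genes), with a median of −0.04, or 0.10 relative to all genes. RA-induced genes thus made up 25.4% of the genes called lower and 5.51% of the genes tested, and RA-repressed genes made up 23.4% of the genes called higher, 7.3% of the genes called lower and 3.11% of the genes tested. With an equal median the induced genes remained below all genes (13 called higher and 67 lower), and the median of the repressed genes turned positive, at 0.16. In bulk RNA, fewer cells that responded and less RNA for each of them cannot be told apart.

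**Figure D2:**
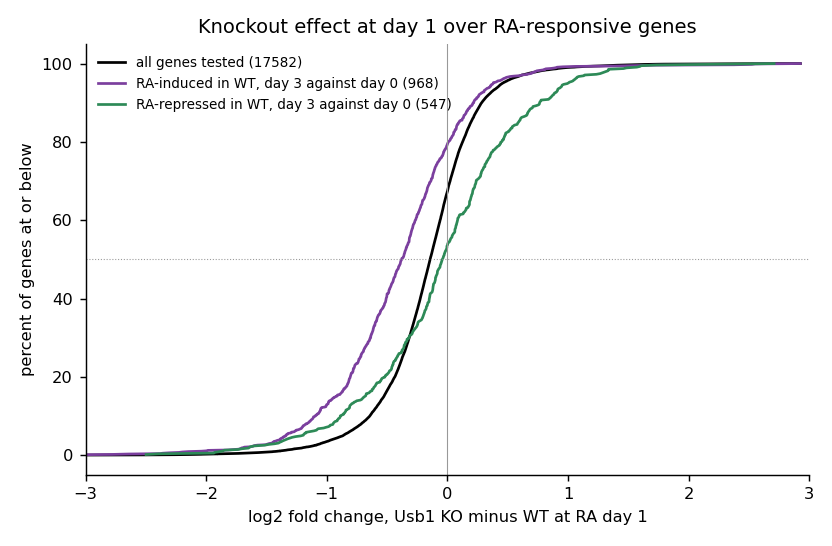
Cumulative percentage of genes (y axis) at or below each log2 fold change between *Usb1* KO and WT cells at RA day 1 (x axis, shown from −3 to 3), for all 17582 genes tested, the 968 RA-induced genes and the 547 RA-repressed genes. The curve of the RA-induced genes lies to the left of all genes, and 79.3% of it is below 0.

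Among the proteins that carry and take up retinoids, *Crabp2* showed the largest difference. *Crabp2* (ENSMUSG00000004885, GRCm38 chr3:87948666-87953376), which encodes the binding protein that delivers RA to its receptors, was at 71.1, 61 and 65.5 TPM in the WT libraries and 11.6, 6.9 and 8.28 TPM in the *Usb1* KO libraries. The groups did not overlap, and KO cells held 13.5% of the WT mean. On the log2 scale the difference was −2.78 (limma adjusted p = 0.000173, SE 0.17). *Stra6*, a membrane receptor for the retinol carrier protein, was at 16.7, 14.4 and 13.8 TPM in the WT libraries and 4.11, 4.66 and 2.5 TPM in the *Usb1* KO libraries. This gave a log2 fold change of −1.77 (limma adjusted p = 0.00165, SE 0.19). Each KO library lay below each WT library for *Stra6* too. *Cyp26b1*, an enzyme that degrades RA, was also called lower (4.07 ± 0.186 and 1.35 ± 0.234 TPM in WT and KO cells, log2 fold change −1.11, limma adjusted p = 0.00454). It was named after its value was seen.

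Not all of the retinoid genes were lower. *Cyp26a1*, an RA-induced enzyme of RA degradation, was at 104, 118 and 112 TPM in the WT libraries and 116, 107 and 108 TPM in the *Usb1* KO libraries, with overlapping groups and a log2 fold change of −0.01 (limma adjusted p = 0.913, SE 0.06). *Dhrs3*, a retinaldehyde reductase that is itself RA-induced, overlapped as well, at 73.5 ± 1.87 and 68 ± 6.56 TPM and −0.11 (limma adjusted p = 0.29, SE 0.07). The receptor *Rarb*, a direct RA target, was at 7.6, 6.78 and 6.65 TPM in the WT libraries and 4.31, 4.23 and 4.48 TPM in the *Usb1* KO libraries, and passed the test without reaching 2-fold (log2 fold change −0.58, limma adjusted p = 0.0136, SE 0.12). Over the list of RA receptors, binding proteins and metabolism, 22 of 25 genes were tested, 4 were called lower and none higher, 11 passed as lower and 2 as higher, and the median was −0.29. At an equal median 6 passed as lower and 5 as higher, *Rarb* no longer passed, and 2 stayed called lower.

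The RefSeq promoters of *Rarb* and *Cyp26a1* are shown because both hold a match to the direct repeat that RA receptors bind, while only *Rarb* passed the test. That of *Stra8*, a germline gene called lower, is shown as one without such a match. The windows run from 250 bases before to 50 bases after the transcription start (GRCm38.p6, gene strand, 5′ to 3′), and capitals mark direct repeats of the half-sites with 1, 2 or 5 bases between them. A half-site was spelled AGGTCA or else GGGTCA or else AGTTCA or else GGTTCA, and both strands were searched.
*Rarb*, chr14:16575427-16575726, minus strand: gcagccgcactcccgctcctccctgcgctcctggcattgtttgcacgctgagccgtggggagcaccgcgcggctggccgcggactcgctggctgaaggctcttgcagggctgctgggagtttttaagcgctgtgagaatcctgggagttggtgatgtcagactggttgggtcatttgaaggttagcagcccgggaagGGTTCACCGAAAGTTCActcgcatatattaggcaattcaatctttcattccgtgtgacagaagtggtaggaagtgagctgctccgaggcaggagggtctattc
*Cyp26a1*, chr19:37697558-37697857, plus strand: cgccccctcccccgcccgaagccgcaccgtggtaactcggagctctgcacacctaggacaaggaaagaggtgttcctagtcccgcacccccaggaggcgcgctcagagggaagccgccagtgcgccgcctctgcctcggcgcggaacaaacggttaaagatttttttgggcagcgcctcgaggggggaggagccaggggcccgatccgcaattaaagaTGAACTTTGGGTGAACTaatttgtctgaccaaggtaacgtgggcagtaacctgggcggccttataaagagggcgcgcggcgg
*Stra8*, chr6:34920698-34920997, plus strand: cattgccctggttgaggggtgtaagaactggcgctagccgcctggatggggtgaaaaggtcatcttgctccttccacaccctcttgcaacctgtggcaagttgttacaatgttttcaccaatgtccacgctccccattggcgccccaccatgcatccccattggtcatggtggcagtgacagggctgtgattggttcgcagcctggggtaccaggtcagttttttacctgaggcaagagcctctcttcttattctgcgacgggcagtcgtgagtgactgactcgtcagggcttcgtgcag

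Both matches had a spacer of 5 bases. In *Rarb* the match lies on the strand of the gene and in *Cyp26a1* on the opposite strand. Such a repeat was present in 0.588% of all 32851 promoter windows. Of the genes tested, 11044 had a window and 55 of these (0.498%) held a match, among them 0 of 225 genes called lower and 0 of 58 called higher. *Crabp2* had no window in the table, and sequence outside the windows was not searched.

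*Hox* genes, which encode homeobox factors that pattern the body axis, were lower as a group, with *Hoxb1* furthest down. *Hoxb1* (ENSMUSG00000018973, GRCm38 chr11:96365752-96368256), one of the first *Hox* genes to respond to RA in the embryo, was at 18.6, 13.8 and 14.8 TPM in the WT libraries and 3.01, 2.97 and 3.14 TPM in the *Usb1* KO libraries. Each KO library lay below each WT library, and the log2 fold change was −2.04 (limma adjusted p = 0.000238, SE 0.13). *Hoxb8* was at 9.01, 12.4 and 12.7 TPM in the WT libraries and 3.62, 4.23 and 5.9 TPM in the *Usb1* KO libraries, called lower at −1.15 (limma adjusted p = 0.00758). *Hoxb3* was at 6.02 ± 0.513 and 2.32 ± 0.172 TPM in WT and KO cells, called lower at −1.08 (limma adjusted p = 0.00285). *Hoxa5*, a gene of the *Hoxa* cluster, was at 100.5, 108 and 112 TPM in the WT libraries and 83.3, 78.4 and 82.1 TPM in the *Usb1* KO libraries. It passed the test as lower, at −0.39 (limma adjusted p = 0.00408), without overlap of the groups, and did not pass it with an equal median. *Hoxb4* also passed without reaching 2-fold, at 42.3 ± 2.12 and 28.4 ± 2.05 TPM and −0.56 (limma adjusted p = 0.00318). Of 39 *Hox* genes, 24 were tested, 3 were called lower and none higher, 14 passed as lower and 1, *Hoxa10*, as higher, with a median of −0.47. Scaled to an equal median, 8 passed as lower and 1 as higher, and 1 stayed called lower. *Hoxa10* was at 2.86 ± 0.436 and 4.98 ± 0.559 TPM and was named after its value was seen.

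Of 17 other RA-responsive transcription factors and targets tested, 11 passed the test as lower and *Cdx1* alone as higher. *Zfp703*, a transcriptional corepressor, was at 82.1, 78.5 and 89.3 TPM in the WT libraries and 30.3, 28.6 and 30.5 TPM in the *Usb1* KO libraries. Its log2 fold change was −1.45 (limma adjusted p = 6.44e-05, SE 0.06). *Meis2*, a homeobox partner of HOX proteins, was at 10.4, 9.36 and 10 TPM in the WT libraries and 4, 3.52 and 3.7 TPM in the *Usb1* KO libraries. The *Meis2* groups were apart, at −1.21 (limma adjusted p = 0.000949, SE 0.11). *Foxa1*, a pioneer factor of endoderm, and *Stra8*, described with the germline genes, were also called lower, at −1.05 and −1.13. *Meis1* passed the test without reaching 2-fold on the log2(TPM + 1) scale (3.92 ± 0.641 and 1.82 ± 0.136 TPM, log2 fold change −0.8, limma adjusted p = 0.0153). *Cdx1*, a caudal homeobox gene that RA induces, went the other way, at 27.8, 30.2 and 35.2 TPM in the WT libraries and 61.4, 60 and 55.5 TPM in the *Usb1* KO libraries, and passed as higher (log2 fold change 0.91, limma adjusted p = 0.00131). The list held 20 genes, of which 5 were called lower and none higher (median −0.71). With an equal median 9 passed as lower and 2 as higher, *Stra8* was not called, and *Cdx1* was called higher.

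**Figure D3:**
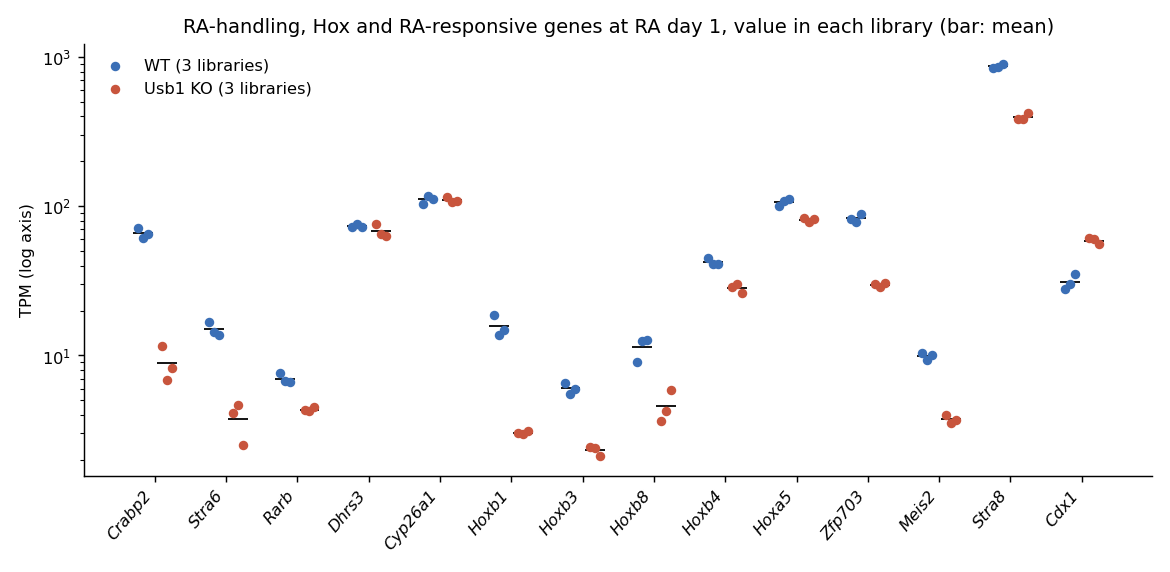
TPM (log axis) of retinoid-handling genes, *Hox* genes and other RA-responsive genes in each of the 3 WT (blue) and 3 *Usb1* KO (red) libraries at RA day 1, with the group mean as a bar. *Crabp2* and *Hoxb1* show wide gaps, *Cyp26a1* and *Dhrs3* overlap, and *Cdx1* is higher in the KO libraries.

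Markers of primitive and visceral endoderm, the extraembryonic lineage that RA also promotes, had the lowest median of the cell type lists examined here. *Gata6* (ENSMUSG00000005836, GRCm38 chr18:11052064-11085635), the transcription factor that specifies primitive endoderm, was at 30.1, 30.9 and 28.5 TPM in the WT libraries and 10.1, 7.58 and 7.83 TPM in the *Usb1* KO libraries. The groups did not overlap, and the log2 fold change was −1.71 (limma adjusted p = 0.000268, SE 0.12). *Sox7*, an endoderm factor of the SOX F group, was at 29.2, 29.9 and 30 TPM in the WT libraries and 5.46, 4.49 and 4.77 TPM in the *Usb1* KO libraries. On the log2 scale the difference was −2.38 (limma adjusted p = 4.62e-05, SE 0.09). *Srgn*, which encodes the proteoglycan serglycin, was at 3.9, 5.32 and 5.62 TPM in the WT libraries and 0.869, 0.554 and 0.612 TPM in the *Usb1* KO libraries (log2 fold change −1.82, limma adjusted p = 0.00154), and *Dab2*, an endocytic adaptor of visceral endoderm, was at 11.6, 10.5 and 9.9 TPM in the WT libraries and 3.44, 4.78 and 3.87 TPM in the *Usb1* KO libraries (log2 fold change −1.22, limma adjusted p = 0.00193). *Gata4* passed the test without reaching 2-fold on the log2(TPM + 1) scale, at 4.79 ± 0.542 and 2.19 ± 0.445 TPM (log2 fold change −0.86, limma adjusted p = 0.0124). The basement membrane genes *Lama1*, *Col4a1* and *Col4a2* and the endocytic receptors *Cubn* and *Lrp2* were called lower with log2 fold changes of −1.42, −1.32, −1.12, −1.68 and −1.63. These 5 genes were named after their values were seen, and *Amn*, *Foxa2* and *Plat* were the other markers called. In all, 20 of 24 markers were tested, 12 were called lower and none higher, and 18 passed as lower and 1, *Apoe*, as higher. The median was −1.09, and with an equal median 16 passed as lower and 9 stayed called. The defining markers *Sox17*, *Afp* and *Ttr* were below the filter in these cultures, and the summed TPM of the list was 1429 to 1684 in the WT and 1033 to 1217 in the KO libraries, most of it from *Lamc1*, *Apoe* and *Sparc*, which other cells express as well.

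Few markers of other lineages were called, and of all genes tested 3.2% were called. Of all genes, 6.26% passed as higher and 20.4% as lower. Among neural markers, 11 of 22 were tested, *Zfp521*, a zinc finger factor of early neural commitment, was called higher at 2.43, 2.38 and 2.33 TPM in the WT libraries and 8.14, 8.5 and 8.83 TPM in the *Usb1* KO libraries (log2 fold change 1.49, limma adjusted p = 0.00051), and 5 passed as lower. *Sox1*, the earliest neuroectoderm factor of the list, overlapped at 25.8 ± 0.717 and 26.7 ± 0.542 TPM (log2 fold change 0.05, limma adjusted p = 0.592), *Nes* was at 7.94 ± 0.221 and 5.28 ± 0.267 TPM (log2 fold change −0.51, limma adjusted p = 0.0155), and *Pax6* was low in both genotypes, at 1.93 ± 0.385 and 0.999 ± 0.317 TPM. At an equal median 4 neural markers passed in each direction and *Nes* did not. None of 8 primitive streak and mesoderm markers passed the test, with *T*, the brachyury factor, at 1.04 ± 0.446 and 0.943 ± 0.657 TPM and *Eomes* at 4.6 ± 0.543 and 6.05 ± 0.568 TPM, whereas 3 passed as higher with an equal median. Of 9 trophoblast markers, 3 passed as higher and 2 as lower and none was called, and *Gata3* was at 2.1 ± 0.337 and 0.787 ± 0.31 TPM (log2 fold change −0.8, limma adjusted p = 0.0369). Of 7 fibroblast feeder markers tested, 4 passed as lower and none was called. *Gata3* and *Col1a1* did not pass at an equal median. *Col1a1* was at 5.19 ± 0.635 and 3.15 ± 0.0574 TPM, and *Dcn*, *Lum* and *Postn*, which define fibroblasts, were at 0 in all 6 libraries. The summed TPM of the feeder list, most of it fibronectin, which other cells express as well, was 505 to 693 in the WT and 347 to 465 in the KO libraries. Of 14 genes of 2-cell-like cells, 4 were tested. *Zscan4a* and *Zscan4d*, near-identical copies whose reads the counting could split, were called lower at low levels (2.72 ± 1.29 and 0.765 ± 0.354 TPM for *Zscan4a* and 2.49 ± 0.779 and 0.711 ± 0.0806 TPM for *Zscan4d*), each in only 2 of the 6 settings that leave out a library and in none with an equal median.

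Naive pluripotency factors were mostly higher in the KO cells. *Tcl1* (ENSMUSG00000041359, GRCm38 chr12:105216750-105222793), a coactivator of AKT that naive stem cells express, was at 9.77, 8.4 and 9.07 TPM in the WT libraries and 71.2, 58.8 and 65 TPM in the *Usb1* KO libraries, the largest log2 fold change among the protein-coding genes called higher. KO cells held 7.16 times the WT mean (log2 fold change 2.71, limma adjusted p = 3.26e-05, SE 0.09). *Esrrb*, an orphan nuclear receptor of the naive network, was at 117, 110.1 and 109 TPM in the WT libraries and 246, 258 and 215 TPM in the *Usb1* KO libraries. This gave a log2 fold change of 1.09 (limma adjusted p = 0.000238, SE 0.07). *Zfp42*, which encodes REX1, was at 296, 296 and 280.1 TPM in the WT libraries and 546, 560.1 and 539 TPM in the *Usb1* KO libraries and *Nanog* at 689.9, 715 and 734 TPM in the WT libraries and 1006, 1026 and 1044 TPM in the *Usb1* KO libraries. Neither reached 2-fold, at 0.91 (limma adjusted p = 6.44e-05, SE 0.04) and 0.52 (limma adjusted p = 0.000476, SE 0.04), and both were apart from WT in every library. *Klf4* did not pass the test (61.8 ± 2.77 and 63.7 ± 5.03 TPM, log2 fold change 0.04, limma adjusted p = 0.704). Of 18 naive factors, all tested, 2 were called higher and none lower, and 11 passed as higher and 3 as lower (median 0.29). Under the equal median, 5 were called higher, and 13 passed as higher and 2 as lower.

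The core and formative factors split. *Pou5f1*, which encodes OCT4, passed as slightly higher (log2 fold change 0.18, limma adjusted p = 0.0144), and *Sox2* as slightly lower (log2 fold change −0.19, limma adjusted p = 0.0208), a difference that with an equal median was 0.01 and did not pass. *Sox3*, an X-linked SOX factor of neural progenitors, was at 44.3, 39 and 40.8 TPM in the WT libraries and 8.73, 7.85 and 9.39 TPM in the *Usb1* KO libraries, and its log2 fold change was −2.13 (limma adjusted p = 5.49e-05, SE 0.09). *Dnmt3l*, a cofactor of de novo DNA methylation, was at 13.9, 13.9 and 16.4 TPM in the WT libraries and 6.81, 5.22 and 5.52 TPM in the *Usb1* KO libraries (log2 fold change −1.2, limma adjusted p = 0.00151), and *Zfp281*, a zinc finger factor of the exit from the naive state, was at 296, 264 and 279.7 TPM in the WT libraries and 128, 138 and 119 TPM in the *Usb1* KO libraries (log2 fold change −1.12, limma adjusted p = 0.000184). For these 3 genes every KO library lay below every WT library. *Sox3* and *Dnmt3l* were already lower in KO cells at day 0, with log2 effects of −2.04 (limma adjusted p = 0.000346) and −2.15 (limma adjusted p = 1.67e-07). *Otx2*, a factor of formative cells, was lower without reaching 2-fold on the log2(TPM + 1) scale (5.69 ± 0.483 and 2.6 ± 0.586 TPM, log2 fold change −0.9, limma adjusted p = 0.0099). Of 22 genes, 21 were tested, 3 were called lower and none higher, and 10 passed as lower and 4 as higher (median −0.13). With an equal median 6 passed as lower and 5 as higher, 2 were called lower and 1 higher, and *Zfp281* was not called.

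RA also switches on genes of the germline in stem cells, and here the differences between genotypes were uneven. *Stra8* (ENSMUSG00000029848, GRCm38 chr6:34920163-34939344), the RA-induced gatekeeper of meiosis, was at 841, 861 and 905 TPM in the WT libraries and 386, 382 and 421 TPM in the *Usb1* KO libraries. The KO libraries held 45.6% of the WT mean (log2 fold change −1.13, limma adjusted p = 7.7e-05, SE 0.05). *Stra8* was already lower in KO cells at day 0, at 25.2 ± 0.269 and 10.3 ± 1.14 TPM (log2 fold change −1.22, limma adjusted p = 5.88e-07). Its effects at day 1 and day 0 did not differ past the test (difference 0.09, limma adjusted p = 0.695). *Rec8*, a meiotic cohesin subunit, was at 100.1, 102 and 103 TPM in the WT libraries and 35, 34.5 and 29.6 TPM in the *Usb1* KO libraries. The log2 fold change was −1.6 (limma adjusted p = 6.44e-05, SE 0.07). *Dazl*, a germ cell RNA binding protein, and *Sycp3*, a protein of the synaptonemal complex, overlapped between genotypes, at 26 ± 0.654 and 25.9 ± 1.61 TPM for *Dazl* and 9.38 ± 2.63 and 9.08 ± 1.02 TPM for *Sycp3*. *Tex101*, a germ cell surface protein, was called higher at a low level (0.663, 0.384 and 1.06 TPM in the WT libraries and 2.43, 3.91 and 2.9 TPM in the *Usb1* KO libraries, log2 fold change 1.26, limma adjusted p = 0.0109). Of the 22 genes tested of 24 meiosis and germline genes, a list without *Stra8*, 1 was called in each direction, and 2 passed as higher and 4 as lower. At an equal median 2 passed in each direction.

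Among genes of the Nodal pathway, *Inhbb*, *Lefty2* and *Lefty1* were higher. *Inhbb*, the activin beta B subunit, was at 119, 118 and 112 TPM in the WT libraries and 400.2, 397 and 368 TPM in the *Usb1* KO libraries. Its log2 fold change was 1.73 (limma adjusted p = 1.92e-05, SE 0.05) with a gap between the groups. *Lefty2*, a secreted Nodal inhibitor that Nodal induces, was at 74.7, 71.3 and 59.4 TPM in the WT libraries and 186, 158 and 164 TPM in the *Usb1* KO libraries (log2 fold change 1.3, limma adjusted p = 0.00041, SE 0.10), and *Lefty1* at 705, 709 and 599 TPM in the WT libraries and 1291, 1123 and 1197 TPM in the *Usb1* KO libraries (log2 fold change 0.84, limma adjusted p = 0.00105). *Nodal* itself overlapped, at 201 ± 10.9 and 220.2 ± 15.9 TPM (log2 fold change 0.13, limma adjusted p = 0.182). At day 0 *Lefty2* and *Lefty1* already passed as higher in KO cells, with log2 effects of 1.23 and 0.61. *Inhbb* did not pass there (0.25, limma adjusted p = 0.189). Of 14 genes tested of 15, 2 were called higher and none lower, with 4 passing as higher and 5, receptors and intracellular components among them, as lower. At an equal median 7 passed as higher and 1 as lower.

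Several targets of BMP signalling were lower. *Msx1* (ENSMUSG00000048450, GRCm38 chr5:37820485-37824583), a homeobox target of BMP and RA, was at 21.9, 18 and 19.6 TPM in the WT libraries and 3.36, 2.16 and 3.78 TPM in the *Usb1* KO libraries. On the log2 scale the difference was −2.36 (limma adjusted p = 0.000374, SE 0.18). Of the ID proteins, inhibitors of basic helix-loop-helix factors and direct BMP targets, 3 fell at smaller size. *Id1* was at 785, 825 and 866 TPM in the WT libraries and 464, 482 and 512 TPM in the *Usb1* KO libraries (log2 fold change −0.76, limma adjusted p = 0.000347), *Id2* was at 265, 265 and 294 TPM in the WT libraries and 145, 123 and 147 TPM in the *Usb1* KO libraries (log2 fold change −0.99, limma adjusted p = 0.000532) and *Id3* was at 154, 162 and 172 TPM in the WT libraries and 96.3, 92.2 and 102 TPM in the *Usb1* KO libraries (log2 fold change −0.74, limma adjusted p = 0.000545). In each of these 3 the groups did not overlap. *Id4* overlapped and did not pass the test (6.18 ± 0.924 and 6.54 ± 1.03 TPM, log2 fold change 0.07, limma adjusted p = 0.768). The same held for the receptor decoy *Bambi* (9.64 ± 0.608 and 10.4 ± 1.37 TPM, log2 fold change 0.1, limma adjusted p = 0.596). Both were named after their values were seen. The ligand *Bmp4* did not pass the test (29.8 ± 0.775 and 25.5 ± 3.36 TPM, log2 fold change −0.23, limma adjusted p = 0.135). Of 16 genes tested of 19, 1 was called lower, 9 passed as lower and none as higher (median −0.50), and 8 passed as lower with an equal median.

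FGF, Wnt and LIF signalling genes moved in both directions, where of all genes 6.26% passed as higher and 20.4% as lower. *Fgf17* and *Fgf15*, FGF ligands of the early embryo, were called higher, at 2.08, 3.52 and 2.87 TPM in the WT libraries and 12.8, 9.6 and 8.64 TPM in the *Usb1* KO libraries for *Fgf17* and at 6.3 ± 0.169 and 17.4 ± 3.45 TPM for *Fgf15* (log2 fold changes 1.57 (limma adjusted p = 0.00282) and 1.32 (limma adjusted p = 0.00155)). The receptor *Fgfr2* was called lower, at 15.2, 11 and 12.2 TPM in the WT libraries and 4.42, 5.16 and 4.52 TPM in the *Usb1* KO libraries (log2 fold change −1.27, limma adjusted p = 0.00179). The ERK feedback inhibitors *Spry4* and *Dusp6* passed as lower (log2 fold changes −0.69, limma adjusted p = 0.00304, and −0.36, limma adjusted p = 0.00998), and *Spry2* did not pass (log2 fold change −0.15, limma adjusted p = 0.0611). Under the equal median, *Dusp6* no longer passed. Of 17 genes tested of 19 in this list, 3 passed as higher and 6 as lower, and 4 and 3 at an equal median. Among Wnt genes, *Wnt7b* was called higher (0.718, 0.867 and 0.674 TPM in the WT libraries and 3.94, 4.39 and 3.37 TPM in the *Usb1* KO libraries, log2 fold change 1.48, limma adjusted p = 0.00219) and the Wnt inhibitor *Dkk1* was called lower at a low level (1.94 ± 0.598 and 0.246 ± 0.13 TPM, log2 fold change −1.23, limma adjusted p = 0.0119), while *Axin2*, a general Wnt target, did not pass (2.16 ± 0.0377 and 2.08 ± 0.732 TPM). Of 13 Wnt genes tested of 20, 2 passed as higher and 5 as lower. In the LIF pathway none of 14 genes was called, and 7 passed as lower and 1 as higher. These included the receptor *Lifr* (23.5 ± 2.36 and 15.3 ± 1.67 TPM, log2 fold change −0.59, limma adjusted p = 0.00999), the transcription factor *Stat3* (24.7 ± 1.3 and 19.6 ± 1.02 TPM, log2 fold change −0.32, limma adjusted p = 0.0217) and its target *Socs3* (22.7, 22.1 and 21.9 TPM in the WT libraries and 12.2, 11.7 and 11.5 TPM in the *Usb1* KO libraries, log2 fold change −0.86, limma adjusted p = 0.000562). *Stat3* did not pass at an equal median.

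Most genes of the integrated stress response, which the factor ATF4 drives under amino acid or endoplasmic reticulum stress, were higher. *Chac1*, a glutathione-degrading enzyme and ATF4 target, was at 12.6, 13.5 and 11.4 TPM in the WT libraries and 42.8, 39.2 and 33.5 TPM in the *Usb1* KO libraries. This gave a log2 fold change of 1.54 (limma adjusted p = 0.000295, SE 0.11). *Asns*, asparagine synthetase, was at 166, 183 and 177 TPM in the WT libraries and 343, 342 and 363 TPM in the *Usb1* KO libraries (log2 fold change 0.99, limma adjusted p = 0.000116), and *Trib3*, a pseudokinase that ATF4 induces, was at 39.2, 39.2 and 40.6 TPM in the WT libraries and 79.2, 77.6 and 69.2 TPM in the *Usb1* KO libraries (log2 fold change 0.91, limma adjusted p = 0.000314). The groups were apart for these 3 genes. *Ddit3*, which encodes CHOP, rose less (23.2 ± 1.76 and 31.9 ± 3.52 TPM, log2 fold change 0.44, limma adjusted p = 0.0186). *Nupr1* was called higher (3.08 ± 0.332 and 7.21 ± 0.404 TPM, log2 fold change 1.01, limma adjusted p = 0.00288), in 3 of the 6 settings that leave out a library. At day 0 *Chac1* was already higher in KO cells, at 7.07 ± 1.32 and 32 ± 0.79 TPM (log2 fold change 2.04, limma adjusted p = 0.000297). *Nupr1*, *Trib3* and *Asns* also passed as higher at day 0, at 1.38, 0.67 and 0.58, and *Ddit3* did not pass there (0.34, limma adjusted p = 0.174). Of 15 genes, 2 were called higher and none lower, 11 passed as higher and 2, *Ddit4* and *Sesn3*, as lower, with a median of 0.73 that did not turn with any scaling tried.

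Of 14 enzymes of threonine, glycine and one-carbon metabolism, 7 passed as higher and 1 as lower, and 2 were called higher. *Tdh*, threonine dehydrogenase, on which mouse stem cells depend for threonine catabolism, was at 10.7, 11.4 and 10 TPM in the WT libraries and 35.2, 35.2 and 32.8 TPM in the *Usb1* KO libraries. The log2 fold change was 1.6 (limma adjusted p = 9.05e-05, SE 0.08). *Mthfd2*, the mitochondrial folate enzyme, was at 65.5, 67 and 69.4 TPM in the WT libraries and 139, 140.0 and 137 TPM in the *Usb1* KO libraries (log2 fold change 1.03, limma adjusted p = 5.43e-05, SE 0.04), and *Gldc*, the glycine decarboxylase, overlapped (41 ± 6.03 and 44 ± 2 TPM, log2 fold change 0.11, limma adjusted p = 0.482). Of 19 genes of glycolysis and glucose uptake, none was called, 10 passed as lower and 1 as higher. *Ldha*, lactate dehydrogenase, was at 1110.3 ± 4.73 and 873 ± 61.4 TPM (log2 fold change −0.35, limma adjusted p = 0.00674), and *Hk2*, hexokinase, did not pass (144 ± 11.7 and 137 ± 8.69 TPM). With an equal median 4 genes of glycolysis passed as lower and 2 as higher, and *Ldha* no longer passed.

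Most targets of p53 passed as lower at modest size. *Trp53inp1*, a p53-induced regulator of autophagy and death, was at 150.2, 138 and 141 TPM in the WT libraries and 66.2, 72.9 and 63.7 TPM in the *Usb1* KO libraries, called lower at −1.07 (limma adjusted p = 0.000173, SE 0.06). *Ccng1*, cyclin G1, was at 358, 342 and 369 TPM in the WT libraries and 249.7, 239 and 243 TPM in the *Usb1* KO libraries (log2 fold change −0.54, limma adjusted p = 0.000518), and *Mdm2*, the ligase that degrades p53, was at 142 ± 4.61 and 117 ± 2.77 TPM (log2 fold change −0.28, limma adjusted p = 0.00629). *Cdkn1a*, which encodes p21, overlapped (38.6, 37.4 and 38.7 TPM in the WT libraries and 39.5, 38.2 and 39.2 TPM in the *Usb1* KO libraries, log2 fold change 0.03, limma adjusted p = 0.742). *Gdf15*, which ATF4 induces as well as p53, was called higher (25.2, 24.2 and 20.9 TPM in the WT libraries and 51.8, 53.1 and 45.2 TPM in the *Usb1* KO libraries, log2 fold change 1.06, limma adjusted p = 0.000725), though not without WT replicate 3. Of 20 genes, 1 was called in each direction, 15 passed as lower and 1 as higher (median −0.43). At an equal median 9 passed as lower and 2 as higher, *Mdm2* did not pass, and *Trp53inp1* was not called.

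**Figure D4:**
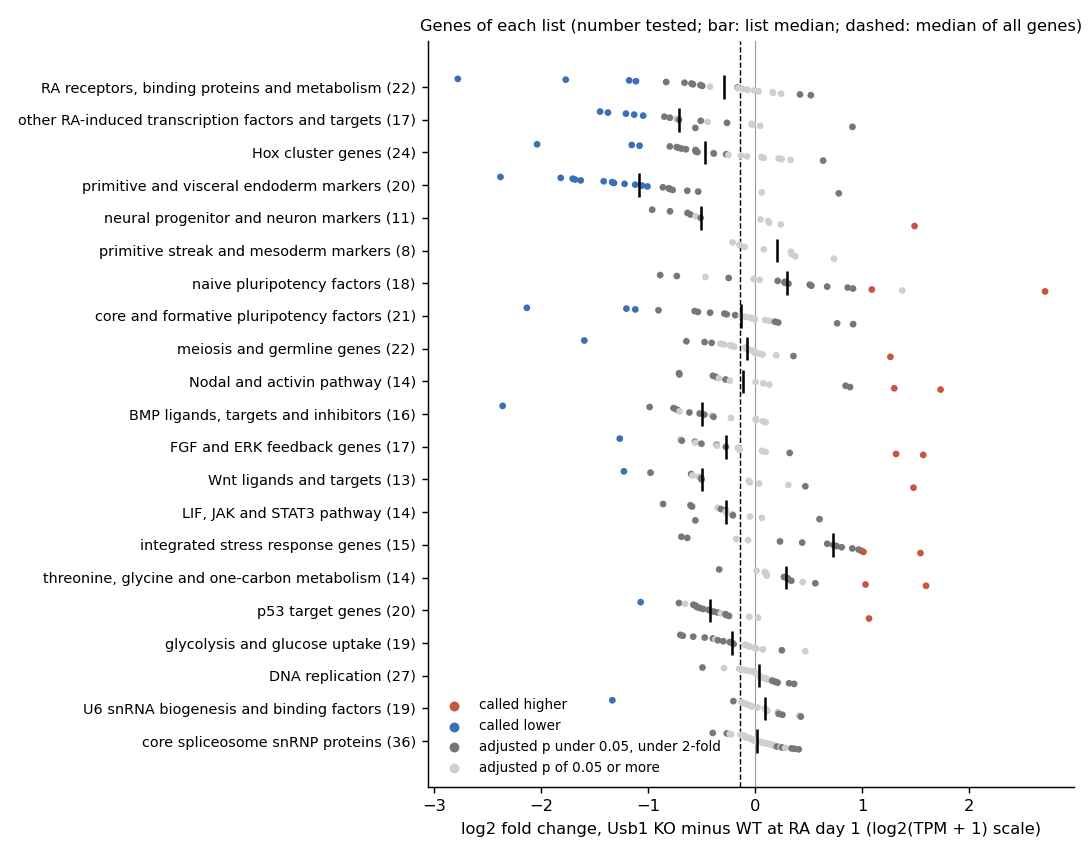
Log2 fold change between *Usb1* KO and WT cells at RA day 1 (x axis, log2(TPM + 1) scale) of each tested gene in 21 of the lists (y axis, number tested in parentheses), coloured by call, with the list median as a bar and the median of all genes, −0.14, as a dashed line. The endoderm markers have the lowest median of these lists, −1.09, and the genes of the integrated stress response the highest, 0.73.

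Apart from *Usb1*, no factor that makes or binds U6 RNA was called, where of all genes tested 3.2% were called. Of all genes, 6.26% passed as higher and 20.4% as lower. *Tut1*, the uridylyl transferase that extends the U6 tail, was at 51.1, 54.3 and 56.9 TPM in the WT libraries and 51.6, 50.3 and 51.1 TPM in the *Usb1* KO libraries (log2 fold change −0.08, limma adjusted p = 0.315), *Sart3*, which recycles U6 particles, was at 127, 118 and 127 TPM in the WT libraries and 116, 116 and 113 TPM in the *Usb1* KO libraries (log2 fold change −0.11, limma adjusted p = 0.12), and *Lsm8*, of the ring that binds the U6 end, was at 31.9, 28.5 and 31.6 TPM in the WT libraries and 29, 31.7 and 32.9 TPM in the *Usb1* KO libraries (log2 fold change 0.02, limma adjusted p = 0.847). The groups overlapped for *Tut1* and *Lsm8*, and none of these 3 genes passed the test. Of 19 genes, *Usb1* was called lower, 3 passed as higher and 1 other than *Usb1* as lower. At an equal median 8 passed as higher and *Usb1* alone as lower. Of 36 core proteins of the spliceosome, none was called, 5 passed as higher and 2 as lower. *Prpf8* was at 518, 406 and 448 TPM in the WT libraries and 354, 380.4 and 305 TPM in the *Usb1* KO libraries (log2 fold change −0.4, limma adjusted p = 0.0367), and *Sf3b1* was at 269.9 ± 6.98 and 261 ± 2.25 TPM (log2 fold change −0.05, limma adjusted p = 0.399). Under the equal median, 17 spliceosome genes passed as higher and none as lower, and *Prpf8* did not pass. Of 21 exonucleases and tailing enzymes tested of 23, none was called, and 5 passed as higher and 2 as lower, or 12 and 2 at an equal median. *Toe1* and *Parn*, deadenylases that also trim small noncoding RNAs, did not pass (22.7 ± 0.86 and 22.8 ± 2.29 TPM for *Toe1* and 18.9 ± 1.05 and 20.1 ± 2.24 TPM for *Parn*).

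Several further genes stood out by size. *Ifitm3* (ENSMUSG00000025492, GRCm38 chr7:141009586-141010770), an interferon-induced membrane protein that germ line and stem cells also express, was at 100.2, 104 and 104 TPM in the WT libraries and 532, 451 and 539 TPM in the *Usb1* KO libraries. Its log2 fold change was 2.29 (limma adjusted p = 2.67e-05, SE 0.07). *Ifitm1* rose less (42.3 ± 0.185 and 73.9 ± 12.7 TPM, log2 fold change 0.77, limma adjusted p = 0.00571), and of 11 interferon genes tested of 20, 3 passed as higher and 2 as lower, against 6.26% and 20.4% of all genes. The X-linked *Rhox5*, a homeobox gene, was at 35.6, 41.7 and 30.7 TPM in the WT libraries and 181, 203 and 232 TPM in the *Usb1* KO libraries, and *Tex13b*, also X-linked, was at 12.9, 16.5 and 15.6 TPM in the WT libraries and 86, 99.2 and 84.7 TPM in the *Usb1* KO libraries. Both were called higher, at 2.48 (limma adjusted p = 0.00011, SE 0.13) and 2.51 (limma adjusted p = 5.43e-05, SE 0.11), with every KO library above every WT library. *Hopx*, an atypical homeodomain protein, was at 0.87, 1.12 and 0.872 TPM in the WT libraries and 9.09, 8.16 and 7.09 TPM in the *Usb1* KO libraries (log2 fold change 2.22, limma adjusted p = 0.000326), *Cbr3*, a carbonyl reductase, at 15.6, 17.4 and 15.1 TPM in the WT libraries and 70.7, 77.7 and 84.9 TPM in the *Usb1* KO libraries (log2 fold change 2.21, limma adjusted p = 4.65e-05), and *Cldn4*, a tight junction claudin, at 37.4, 32.5 and 34.9 TPM in the WT libraries and 117, 119 and 113 TPM in the *Usb1* KO libraries (log2 fold change 1.7, limma adjusted p = 3.26e-05). *Serpinb6c*, *Fgf18*, *Fetub* and *Lhb* completed the 12 protein-coding genes with the largest rises, at log2 fold changes of 2.55, 1.7, 1.71 and 1.66. *Serpinb6c*, *Hopx*, *Cbr3*, *Fetub* and *Cldn4* also passed as higher at day 0, with log2 effects of 3.62, 2.05, 1.69, 1.64 and 1.54. *Fgf18* and *Lhb* did not pass the test at day 0 (0.39 and 1.14).

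Among the falls, *Gadd45g* (ENSMUSG00000021453, GRCm38 chr13:51846678-51848468), a growth arrest and DNA damage gene linked to DNA demethylation and differentiation, was at 36.3, 42.5 and 43.4 TPM in the WT libraries and 3.44, 3.8 and 4.25 TPM in the *Usb1* KO libraries. KO cells held 9.4% of the WT mean (log2 fold change −3.11, limma adjusted p = 3.26e-05, SE 0.11). *Neurog3*, a basic helix-loop-helix factor of endocrine and neural progenitors, was at 34.7, 33.5 and 41.7 TPM in the WT libraries and 7.98, 6.66 and 7.91 TPM in the *Usb1* KO libraries (log2 fold change −2.14, limma adjusted p = 0.000124). *Rasgrp3*, a RAS activator, was at 11.3, 9.71 and 12.4 TPM in the WT libraries and 1.68, 1.61 and 1.48 TPM in the *Usb1* KO libraries (log2 fold change −2.22, limma adjusted p = 0.000211), *Ms4a4d* was at 22.9, 26.5 and 31.1 TPM in the WT libraries and 6.31, 3.62 and 4.19 TPM in the *Usb1* KO libraries (log2 fold change −2.31, limma adjusted p = 0.000569), and *Crygc*, a lens crystallin, was at 27.4, 30 and 27.7 TPM in the WT libraries and 6.75, 4.9 and 5.37 TPM in the *Usb1* KO libraries (log2 fold change −2.15, limma adjusted p = 0.000165). In all 5 genes the genotypes were apart. *Vim*, the intermediate filament vimentin, was at 165, 167 and 169 TPM in the WT libraries and 60.5, 57.2 and 57.1 TPM in the *Usb1* KO libraries. On the log2 scale the difference was −1.5 (limma adjusted p = 1.92e-05, SE 0.04). *Igfbp2*, an insulin-like growth factor binding protein, was the most abundant of these, at 1588, 1622 and 1501 TPM in the WT libraries and 768, 625 and 737 TPM in the *Usb1* KO libraries (log2 fold change −1.15, limma adjusted p = 0.000302), and *Pmp22* was at 28.5 ± 1.24 and 10.2 ± 1.6 TPM (log2 fold change −1.41, limma adjusted p = 0.000562).

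Y-linked genes were not detected in the KO libraries. In the WT libraries *Eif2s3y*, a translation initiation factor subunit, was at 61.8, 63.9 and 64 TPM. *Ddx3y*, an RNA helicase, was at 52.4, 50.1 and 55.5 TPM and *Uty*, a histone demethylase homologue, at 15.2, 13.8 and 14.1 TPM. All 3 genes were at 0 in the 3 KO libraries, as was *Uba1y*. A count of 0 allows up to 3 reads in a library, so *Eif2s3y* was at least 434-fold lower, *Ddx3y* at least 451-fold lower and *Uty* at least 232-fold lower. The 3 genes were at 0 in the KO libraries of day 0 and day 3 as well. They account for 3 of the 12 largest falls among protein-coding genes, and, with *Uba1y*, are the 4 protein-coding genes called lower that were at 0 in every KO library. Whether the loss of Y-linked expression or the knockout bears on the other differences cannot be told apart in 1 line.

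Of the genes called, 75 of the 111 higher and 269 of the 452 lower were protein-coding, and 20 of the higher and 46 of the lower had exons of under 200 bases in all. Genes that short yield few fragments in this kind of library. *Snord85*, a small nucleolar RNA, was at 12, 23.3 and 3.02 TPM in the WT libraries and 0, 0 and 0 TPM in the *Usb1* KO libraries, with a wide spread over the WT libraries, and it was called lower with *Gm23600* and *Snord87*, of the same class and also at 0 in every KO library. By the floor of 3 reads, a value of 0 allows up to 8.55 TPM for *Gm23600* and 6.97 TPM for *Snord87*. Their WT means, 8.15 and 6.66 TPM, lie below that, so no fall is shown for either. With voom on recovered reads, *Gm23600*, *Snord87*, *Scarna17* and *Gm23318* did not pass the test. *Scarna17* and *Gm23318*, also short RNA genes, were called higher at 0 ± 0 and 5.2 ± 2.81 TPM for *Scarna17* and 1.36 ± 2.35 and 6.9 ± 1.37 TPM for *Gm23318*, which was called in 1 of the 6 settings that leave out a library. Among longer noncoding genes, *Gm37934* was called higher at 1.64, 0 and 2.74 TPM in the WT libraries and 19.5, 16.6 and 11 TPM in the *Usb1* KO libraries and *Gm29650*, on the Y chromosome, was called lower, at 0 in every KO library. *Gm7091*, an X-linked processed pseudogene whose reads the counting could share with its parent gene, was called higher at 0.734 ± 0.725 and 8.98 ± 1.1 TPM in WT and KO cells.

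The remaining lists held few called genes, where of all genes tested 3.2% were called, 6.26% passed as higher and 20.4% passed as lower. Of 10 genes of DNA methylation, *Gadd45g* was called lower, 4 passed as lower and none as higher, with *Dnmt1* at 225 ± 18.5 and 181 ± 11.2 TPM and *Tet1* at 49.2 ± 6.6 and 43.4 ± 4.88 TPM. *Dnmt1* did not pass at an equal median. Of 12 genes of epithelial and mesenchymal state, *Vim* was called lower, and *Cdh1* and *Cdh2*, the E- and N-cadherin genes, did not pass (log2 fold changes 0.22, limma adjusted p = 0.079, and −0.49, limma adjusted p = 0.125). In that list 1 gene passed as higher and 2 as lower, and 3 and 1 at an equal median. Of 17 imprinted genes tested of 21, *Dlk1* was called lower (44.7, 43.2 and 44.5 TPM in the WT libraries and 23, 19.8 and 21.8 TPM in the *Usb1* KO libraries, log2 fold change −1.0, limma adjusted p = 0.000301) in 3 of the 6 settings that leave out a library. It was not called with the equal median, quantile or voom scaling. Its neighbour *Meg3* passed as lower (log2 fold change −0.99, limma adjusted p = 0.00161). Of 11 genes of insulin-like growth factor binding and the PMP22 family, *Pmp22*, *Igfbp2* and *Igfbp5* were called lower, and 7 passed as lower and none as higher. At an equal median *Pmp22* alone was called, and 3 passed as lower and 1 as higher. Of 15 genes of the LIN28 and MYC network, *Mxd4*, a MYC antagonist, was called lower (16.2, 12.2 and 15.4 TPM in the WT libraries and 4.68, 4.85 and 4.64 TPM in the *Usb1* KO libraries, log2 fold change −1.44, limma adjusted p = 0.000768), *Mycn* passed as higher (21.6, 20 and 20.5 TPM in the WT libraries and 42.1, 45.3 and 39.5 TPM in the *Usb1* KO libraries, log2 fold change 0.99, limma adjusted p = 0.000339) and *Trim71* as lower (log2 fold change −0.69, limma adjusted p = 0.00178). Of these 15, 1 passed as higher and 8 as lower, and 3 in each direction at an equal median. None was called of 22 genes of cholesterol synthesis, of 27 of DNA replication, of 21 of the cell cycle or of 22 of Polycomb complexes, with 3, 6, 6 and 1 passing as higher and 1, 1, 4 and 7 as lower. The balance of the Polycomb genes turned at an equal median, to 6 higher and 4 lower. *Mcm2* was at 289 ± 11.6 and 276 ± 6.89 TPM, *Pcna* was at 398 ± 10.4 and 443 ± 26.9 TPM, *Hmgcs1* was at 97.5 ± 2.55 and 91.7 ± 0.603 TPM, *Ezh2* was at 87.4 ± 2.82 and 89.6 ± 0.911 TPM, and *Ccnd1* was at 93.1 ± 10.6 and 83.9 ± 4.22 TPM. Of 14 host genes of small nucleolar RNAs, 8 passed as higher and none as lower, among them *Gas5* (log2 fold change 0.48, limma adjusted p = 0.00456) and *Snhg1* (log2 fold change 0.4, limma adjusted p = 0.0136). Of 82 ribosomal protein genes, 54 passed as higher and 2 as lower, and none was called (median 0.25). Of 30 genes encoded in mitochondria, 8 passed as higher and none as lower, 4 of them called.

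The genes called at day 1 were followed to the other days. Each day's comparison has its own WT libraries. In the fit of all 17 libraries, 1.6% of 21871 genes were called higher in KO cells at day 0 and 0.521% at day 3, and 1.45% and 0.773% were called lower. Of the 111 genes called higher at day 1, 34 were called higher at day 0 and 13 at day 3, and 0 and 2 were called lower, with medians of 0.90 at day 0, 1.33 at day 1 and 0.22 at day 3. Of the 452 called lower, 99 were called lower at day 0 and 37 at day 3, and 3 and 6 were called higher, with medians of −0.46, −1.26 and −0.25. The genes were called on the day 1 values, so larger changes at day 1 follow from the choice. The interactions with day use the same day 1 libraries, and their counts among the called genes are a description. The effect of the knockout differed between day 1 and day 3, by the interaction in limma at an adjusted p under 0.05 and at least 2-fold, for 493 of 21871 genes (2.25%), among them 41 of the 111 and 152 of the 452. It differed between day 1 and day 0 for 188 genes (0.86%), among them 10 of the 111 and 63 of the 452, and this number was 1822 without WT replicate 2 of day 0, which leaves as the only WT library of day 0 one with few genes of low read number.

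Some genes low in the KO cells at day 1 were no longer low at day 3. *Crabp2* was at 4.3 ± 2.21 and 1.9 ± 0.795 TPM in WT and KO cells at day 0, at 65.9 ± 5.07 and 8.91 ± 2.39 TPM at day 1, and day 3 means were 85.5 ± 13.8 and 139.7 ± 8.69 TPM. The KO mean was thus below the WT mean at day 1 and above it at day 3, a difference of the log2 effects of −3.49 (limma adjusted p = 2.52e-05, SE 0.32). *Hoxb1* was at 0 in both genotypes at day 0, and day 3 means were 36.5 ± 2.99 and 40.9 ± 2.18 TPM (difference −2.2, limma adjusted p = 4.41e-06, SE 0.16). *Vim* was at 240.2 ± 0.703 and 88.9 ± 2.83 TPM at day 0, and day 3 means were 523 ± 16.7 and 494 ± 29.7 TPM (difference −1.42, limma adjusted p = 1.03e-07, SE 0.07). *Gadd45g* was still lower at day 3, at 106 ± 11.6 and 58.6 ± 5.05 TPM, with a smaller gap than at day 1 (difference −2.27, limma adjusted p = 5.02e-05, SE 0.23). For *Gata6*, the difference between the effects at day 1 and day 3 was −0.92 (limma adjusted p = 0.00145, SE 0.14), under 2-fold, and the means at day 3 were 89.6 ± 6.2 and 51.3 ± 2.62 TPM.

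Other genes followed other courses. *Cyp26a1* did not differ past the test at day 1 and was at 402 ± 49 and 88.9 ± 22.5 TPM at day 3 (difference 2.18, limma adjusted p = 0.00027, SE 0.27), a difference not called with a pseudocount of 0.1. *Nanog* was at 819.7 ± 22.9 and 811 ± 47.8 TPM at day 0, and day 1 means were 713 ± 22.1 and 1026 ± 19.1 TPM. At day 3 it was at 22.6 ± 2.16 and 87.2 ± 5.7 TPM, where the KO mean was a larger multiple of the WT mean than at day 1 (difference −1.38, limma adjusted p = 1.99e-06, SE 0.09). *Tcl1* was at 91.9 ± 9.24 and 181 ± 9.21 TPM at day 0, and day 3 means were 1.68 ± 1.24 and 2.02 ± 0.689 TPM, so the ratio was largest at day 1 (difference to day 3 2.46, limma adjusted p = 0.000673, SE 0.35). *Ifitm3* had higher KO means at each day, at 195 ± 0.941 and 934 ± 29.1 TPM at day 0 and 138 ± 8.67 and 327 ± 28 TPM at day 3, and the difference between its effects at day 1 and day 0 was 0.04 (limma adjusted p = 0.89, SE 0.11). *Rhox5* and *Tex13b* had higher KO means at each day as well, at 40.1 ± 4.99 and 226 ± 4.88 TPM for *Rhox5* and 11 ± 6.4 and 92.3 ± 5.93 TPM for *Tex13b* at day 0.

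**Figure D5:**
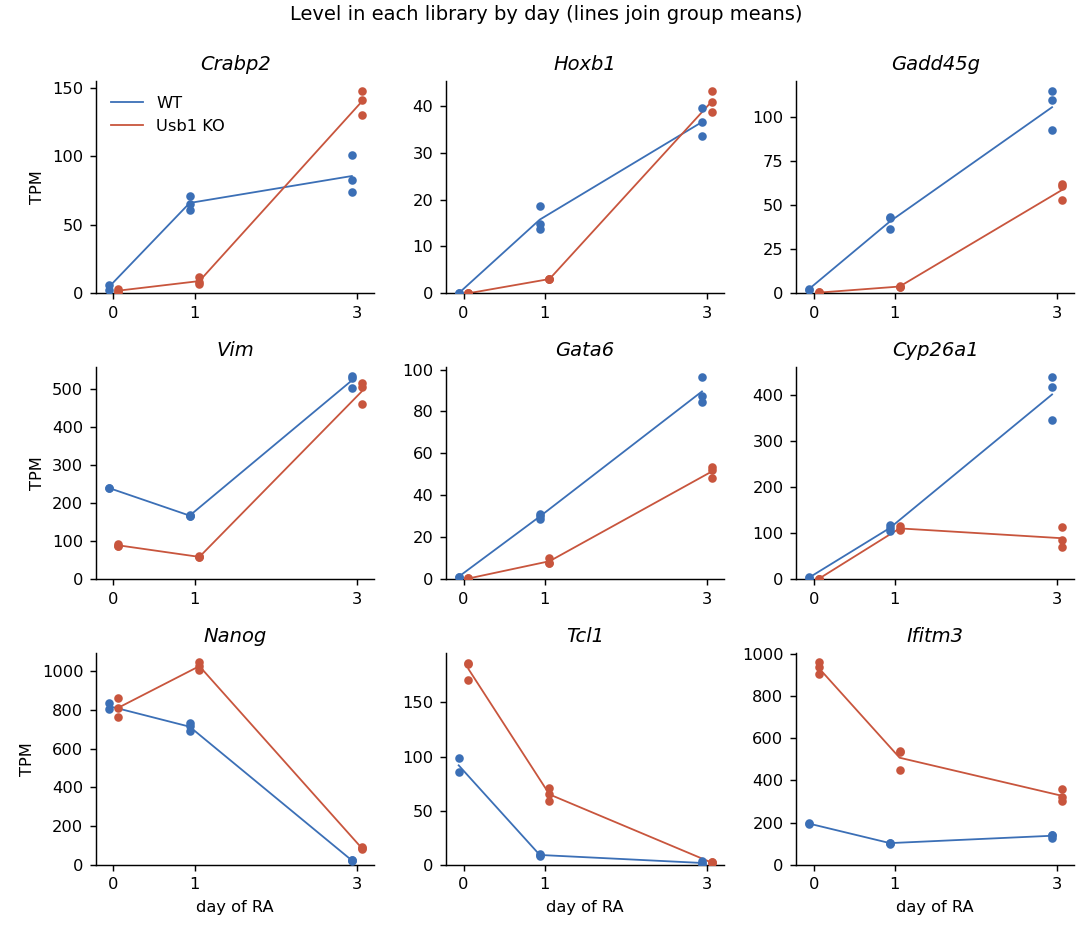
TPM (y axis, from 0) of 9 genes in each library at day 0, 1 and 3 of RA (x axis), WT in blue (2, 3 and 3 libraries) and *Usb1* KO in red (3 at each day), with lines joining the group means. *Crabp2* and *Hoxb1* are low in the KO libraries at day 1 and not at day 3, *Cyp26a1* separates at day 3, and *Ifitm3* is higher in the KO libraries at each day.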

How the data were processed

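RNA-seq of R1/E cells was deposited as 1 table of TPM per gene. Per the labels, the authors mapped paired reads with HISAT2 2.1.0 to GRCm38.p6 and computed TPM with StringTie 1.3.6, and these TPM values are the unit used here. The study's methods do not name these tools and refer to an earlier description of the pipeline. The annotation release is not given in the sources used here, and exon lengths were taken from GENCODE M21, in which 54495 of 54532 gene IDs were found. Columns were matched to samples by name.

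Genes that reached a TPM of 1 in 3 or more of the day 1 libraries were compared with limma 3.58.1 (R 4.3.3), with a trended variance, on log2(TPM + 1), and p-values were Benjamini-Hochberg adjusted over the 17582 genes. Interactions with day were fitted over all 17 libraries (21871 genes). Replicates are separate samples by their labels, and where they are not separate cultures the p-values measure only technical spread. One read was worth a fixed step of TPM times length in each library, and 96.5% to 96.6% of values came out as whole reads (tolerance 0.01). The floor of 3 reads behind a value of 0 covers counting error only.

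Named genes were preset anchor genes, up to 3 called genes per list by size, and the 12 protein-coding and 4 other genes with the largest change in each direction at a mean of at least 5 TPM. The genes, the 36 lists (691 genes) and the tests were chosen with earlier results of these data known. Alternatives changed the pseudocount, filter, scaling, variance model, threshold, gene class and libraries. Python 3.11.15, numpy 2.4.6 and pandas 2.3.3 were used. Some genes are counted in their lists and not reported singly here.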

Additional observations from a re-analysis of the deposited data

Results flagged for a closer look

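For 48 of the 147 named genes the effect of the knockout at RA day 1 differed from its effect at day 3, and for 21 it differed from that at day 0, each by the interaction in limma (adjusted p under 0.05 and at least 2-fold, 17 libraries). The values below are log2 effects of the knockout at day 1 minus those at the other day, and a negative value means that the KO cells were lower, relative to WT, at day 1 than at the other day. A value can come from the effect at day 1, from that at the other day or from both. The difference was negative for 31 of the 48 genes against day 3 and for 15 of the 21 against day 0. Over all genes it was negative for 376 of 493 and 147 of 188, and after quantile normalization for 239 of 432 and 76 of 153. The named genes were chosen in part for the size of their change at day 1, so the split among them is a description.

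Among retinoid and RA-responsive genes, the difference against day 3 was −3.49 for *Crabp2*, −2.20 for *Hoxb1*, −2.06 for *Msx1*, −1.68 for *Meis2*, −1.66 for *Stra6* and −1.55 for *Zfp703*, and it was 2.18 for *Cyp26a1*. Against day 0 it was −1.94 for *Crabp2*, −2.04 for *Hoxb1*, −1.83 for *Msx1*, −1.26 for *Meis2*, −1.84 for *Stra6*, −1.5 for *Zfp703* and 1.69 for *Cyp26a1*. The value of *Cyp26a1* rests on low levels at day 0, at 2.72 ± 1.33 TPM in WT and 0.118 ± 0.205 TPM in KO cells.

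Among endoderm, germline and differentiation genes, the difference against day 3 was −1.61 for *Sox7*, −1.26 for *Rec8*, −2.27 for *Gadd45g*, −2.36 for *Neurog3*, −1.42 for *Vim*, −1.26 for *Col1a1*, −1.17 for *Cdh2*, −1.09 for *Gata3*, −1.28 for *Dlk1*, −1.58 for *Pmp22* and 1.25 for *Tex101*. Against day 0 it was −1.90 for *Sox7*, −1.49 for *Rec8*, −1.82 for *Gadd45g*, −2.67 for *Neurog3* and −1.18 for *Igfbp5*. *Col1a1* and *Cdh2* had positive log2 effects at day 3, of 0.687 and 0.688.

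Pluripotency genes differed in both directions. Against day 3 the difference was −1.38 for *Nanog*, −1.30 for *Otx2*, −1.23 for *Sox3* and −1.13 for *Sox2*, and it was 2.46 for *Tcl1*. Against day 0 it was 1.74 for *Tcl1*. For *Nanog* the KO cells were higher than WT cells at both day 1 and day 3, and the smaller effect was that of day 1. For *Sox2* the log2 effect was 0.95 at day 3 and −0.19 at day 1.

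Among signalling genes, the difference against day 3 was −2.0 for *Dusp6*, −1.65 for *Spry4*, −1.24 for *Spry2*, −1.10 for *Fgfr2*, −1.86 for *Dkk1*, 1.34 for *Fgf17* and 1.47 for *Fgf18*. Against day 0 it was −1.22 for *Dkk1*, −1.01 for *Id3*, 1.26 for *Fgf15*, 1.60 for *Fgf17* and 1.48 for *Inhbb*. The 3 ERK feedback inhibitors *Dusp6*, *Spry4* and *Spry2* all differed the same way from day 3. Their log2 effects were 1.64, 0.97 and 1.09 at day 3, and −0.36, −0.69 and −0.15 at day 1.

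Metabolic, stress and growth genes gave differences against day 3 of 2.70 for *Tdh*, 1.19 for *Chac1*, 1.96 for *Cbr3*, −1.27 for *Trp53inp1*, −1.79 for *Ccnd1*, −1.35 for *Mxd4* and 1.07 for *Mycn*, and of 1.34 for *Tdh* against day 0. For *Ccnd1* the log2 effect was 1.64 at day 3, and that of −0.14 at day 1 did not pass the test. Of the genes named for their size alone, the difference against day 3 was −1.71 for *Rasgrp3*, −1.66 for *Ms4a4d*, −1.39 for *Crygc*, 1.05 for *Ifitm3*, 1.28 for *Cldn4*, 1.38 for *Fetub*, 2.05 for *Hopx*, 2.1 for *Lhb*, 3.73 for *Serpinb6c*, 3.55 for *Gm37934* and 4.88 for *Scarna17*. Against day 0 it was −2.22 for *Rasgrp3* and −2.29 for *Crygc*. *Serpinb6c*, *Gm37934* and *Hopx* were already higher in KO cells at day 0, with log2 effects of 3.62, 2.77 and 2.05. For these 3 genes the effects at day 1 and day 0 did not differ past the test. *Scarna17* is a short RNA at 0 in all 3 WT libraries of day 1, so its value depends on the pseudocount.

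Leaving out each library of the groups compared, 35 of the 48 differences against day 3 and 15 of the 21 against day 0 were called in every setting. Those against day 3 that were not were *Pmp22*, *Chac1*, *Sox3*, *Fgf18*, *Fetub*, *Scarna17*, *Fgf17*, *Ms4a4d*, *Lhb*, *Tex101*, *Ifitm3*, *Gata3* and *Fgfr2*. Those against day 0 were *Id3*, *Tcl1*, *Fgf17*, *Fgf15*, *Neurog3* and *Dkk1*, 5 of them lost without WT replicate 1 of day 0 and 1 without replicate 2. All but *Dkk1* were lost without other libraries as well. With a pseudocount of 0.1 in place of 1, the differences of *Cyp26a1*, *Zfp703*, *Neurog3*, *Crygc*, *Gm37934*, *Pmp22*, *Fgf17*, *Fgf18*, *Chac1*, *Sox3*, *Ms4a4d*, *Fetub* and *Tex101* against day 3 were not called. Nor were those of *Zfp703*, *Gadd45g*, *Msx1*, *Meis2*, *Crygc*, *Neurog3*, *Tcl1*, *Dkk1*, *Fgf15* and *Fgf17* against day 0. After quantile normalization *Pmp22*, *Gata3*, *Fgfr2* and *Sox3* against day 3 and *Igfbp5*, *Dkk1* and *Meis2* against day 0 were not called.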

How the results depend on the processing

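On the TPM scale 563 genes were called, 111 higher and 452 lower. The number called was 360 (66 higher, 294 lower) with TPM of at least 5, 354 (274 lower) among protein-coding genes alone, 1734 (307 and 1427) at a 1.5-fold change and 4679 (1100 and 3579) at an adjusted p alone. Scaling moved the balance of directions, with 196 higher and 243 lower at an equal median and 186 and 249 after quantile normalization. With voom on recovered reads, 211 were called higher and 493 lower. The median over all genes, −0.14, was −0.092 with no filter on low values and −0.0064 with voom, and it turned to 0.055 at an equal median and to 0.011 after quantile normalization. Leaving out each library gave 464 to 672 genes called, 104 to 122 higher, 344 to 556 lower and a median of −0.17 to −0.11.

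For RA-induced genes the median was −0.29 with lists at 2-fold, −0.49 with lists from the KO libraries of day 0 and 3, −0.18 at an equal median and −0.19 after quantile normalization (chosen after seeing the data). Relative to all genes it was −0.14 at 2-fold and −0.34 with the KO lists, and the percentage called lower was 6.02% at 2-fold, 6.92% at an equal median and 7.13% after quantile normalization. Leaving out each library, the median was −0.40 to −0.36, relative to all genes −0.25 to −0.23, and 11.1% to 12.3% were called lower. For RA-repressed genes the median turned positive with the KO lists (0.15), at an equal median (0.16), after quantile normalization (0.12) and without KO replicate 3 (0.025), with a range of −0.079 to 0.025 over the libraries left out. Relative to all genes it was 0.29 with the KO lists and 0.09 to 0.14 with each library left out, and the percentage called lower was 3.76% at 2-fold, 2.61% with the KO lists and 5.30% to 6.58% with each library left out.

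The number of genes whose effect differed between day 1 and day 3 was 373 to 605 with each library left out, against 493. That between day 1 and day 0 was 101 to 1822, against 188. It was 1822 without WT replicate 2 of day 0, 125 and 117 without KO replicates 1 and 3 of day 0, 101 and 114 without WT replicates 1 and 3 of day 1, and 124, 125 and 119 without KO replicates 1, 2 and 3 of day 1. These counts rest on single libraries, and the cause was not tested.

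Of the 71 named genes called, 65 were called in all 6 settings that leave out a library. A change of sign is counted only where a gene passed the test, and *Sox2* alone changed sign so, to 0.0104 at an equal median. The replicate numbers were not found to pair the libraries (r of the deviations 0.01, −0.06 and 0.02), and with the replicate block 555 genes were called at day 1, and 457 and 143 effects differed from day 3 and day 0.

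Depth, 3 libraries a group and 1 KO line limit these results. Genes under 200 bases and genes of low TPM carry few reads, and single calls among them are the least certain.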

Other observations

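*Usb1* lies on chromosome 8. Over the 696 genes of that chromosome with a mean TPM of at least 5, the median log2 difference between KO and WT cells was 0.06 at day 0, −0.03 at day 1 and 0.10 at day 3, against −0.06, −0.13 and 0.01 over 11042 genes on the other autosomes. The 31 genes tested within 500 kb of *Usb1* had a median of −0.19, with 7 passing the test as lower and none called. Over all genes tested the median was −0.14, 20.4% passed as lower and 3.2% were called, so the neighbours are not set apart by these counts.

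Host genes of small nucleolar RNAs and ribosomal protein genes were higher together at day 1. Of 14 host genes, 8 passed the test as higher on the TPM scale and 12 at an equal median. Of 82 ribosomal protein genes 54 passed as higher, with a median of 0.25. What the genes share in length or message structure was not tested.

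Of the 452 genes called lower, 183 were not protein-coding. Among them were 39 lincRNA genes and 35 genes of short RNA classes, and 24 of the genes called lower were at 0 in all 3 KO libraries.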
